A study of Mus musculus with 18 samples.

Results

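The genes examined were 10 rows of a count table of 55573 mouse genes: *Nr3c1* and *Nr3c2*, which encode the glucocorticoid and the mineralocorticoid receptor, and 8 genes known as targets of these receptors, *Fkbp5*, *Tsc22d3*, *Sgk1*, *Zbtb16*, *Per1*, *Cdkn1a*, *Angptl4* and *Pdk4*. They were chosen by gene symbol, as a pathway, with results of these samples already known, and the study itself had picked out *Angptl4* and *Cdkn1a* as higher in males on the same samples. Expression was measured by RNA-sequencing of spinal dorsal horn tissue (DHSC) from the side of the injected paw, in C57BL/6J mice aged 8 to 12 weeks, killed 2 h after an intraplantar injection of 2% formalin. The 18 animals were 6 males, 6 F1/proestrus females, which showed a short interphase between the phases of pain behavior, and 6 F2/metestrus females, which showed a long one. All 18 received formalin, so that none of the values below compares injected with uninjected animals, and pain behavior was scored in all of them before the tissue was taken. Right after the behavior test, vaginal fluid was collected from the females to determine the cycle stage. This handling goes with sex, and its part in the differences between males and females cannot be told apart. Cycle stage and behavior type go together in the female groups and cannot be told apart.

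Glucocorticoids such as corticosterone enter cells and bind receptors held in the cytoplasm by heat shock chaperones. The hormone-bound receptor moves to the nucleus, where it binds glucocorticoid response elements and changes the transcription of its targets, helped by coactivators and corepressors. The mineralocorticoid receptor binds the same hormone with higher affinity and recognizes the same elements. Among the targets, FKBP5 feeds back on the pathway by lowering the hormone affinity of the glucocorticoid receptor. TSC22D3, known as GILZ, carries part of the anti-inflammatory action of glucocorticoids. SGK1 is a kinase that regulates ion channels and transporters, ZBTB16 is a zinc finger transcription repressor, and PER1 is a component of the circadian clock. CDKN1A, or p21, inhibits cyclin-dependent kinases and is also a p53 target, ANGPTL4 inhibits lipoprotein lipase, and PDK4 inhibits the pyruvate dehydrogenase complex. The latter 2 genes are also targets of PPAR receptors.

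The promoter windows of the genes, from 250 bases before to 50 bases after each annotated start, were taken from RefSeq on GRCm38.p6 and searched on both strands for the full palindromic response element, AGAACA and TGTTCT with 3 bases of any kind between them, and for the E-box CACGTG, the site bound by the clock factors that drive *Per1*. Windows were held for 7 of the 10 genes, 16 in all, and none for *Nr3c1*, *Zbtb16* or *Angptl4*. The full element was found in 3 of all 32851 windows (0.00913%), and 1 of these was a window of *Sgk1*. The E-box was found in 2349 windows (7.15%), among them 1 each of *Sgk1*, *Per1* and *Fkbp5*. These 3 windows are shown because they are those of the genes that hold either motif, with the motifs in capitals. A match is a description of the letters only, and partial elements, which are far more common in the genome, were not searched.
Sgk1, chr10:21993640-21993939, plus strand: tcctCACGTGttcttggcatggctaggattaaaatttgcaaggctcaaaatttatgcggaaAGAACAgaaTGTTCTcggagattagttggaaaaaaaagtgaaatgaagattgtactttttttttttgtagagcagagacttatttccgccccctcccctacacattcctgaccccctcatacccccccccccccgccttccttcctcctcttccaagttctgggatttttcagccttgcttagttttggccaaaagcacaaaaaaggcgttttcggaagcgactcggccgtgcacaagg
Per1, chr11:69098699-69098998, plus strand: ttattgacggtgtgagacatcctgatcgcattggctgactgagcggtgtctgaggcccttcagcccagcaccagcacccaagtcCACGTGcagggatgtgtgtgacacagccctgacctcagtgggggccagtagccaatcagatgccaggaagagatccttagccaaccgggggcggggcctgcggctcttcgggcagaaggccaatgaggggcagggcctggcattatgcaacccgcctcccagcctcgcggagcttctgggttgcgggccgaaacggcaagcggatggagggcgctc
Fkbp5, chr17:28486100-28486399, minus strand: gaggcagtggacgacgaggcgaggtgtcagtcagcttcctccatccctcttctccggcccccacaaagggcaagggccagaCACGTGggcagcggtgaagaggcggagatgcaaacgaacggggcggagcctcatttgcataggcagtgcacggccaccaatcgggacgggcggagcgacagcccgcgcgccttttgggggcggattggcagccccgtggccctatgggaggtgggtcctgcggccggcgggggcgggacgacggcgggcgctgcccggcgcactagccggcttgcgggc
In the *Sgk1* window the response element began 189 bases and the E-box 246 bases before the start, while the E-box began 166 bases before the start of *Per1* and 169 bases before that of *Fkbp5*.

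Between 73590509 and 125724156 reads were counted per sample. The library numbers formed 2 series, with replicates 1 to 3 of every group in the first and replicates 4 to 6 in the second. Values are counts divided by the library total and rescaled (CPM) after TMM scaling of the libraries, and all 10 genes passed the filter on low counts in every comparison. Dorsal horn markers were present in all samples, with a summed level of 446 to 528 CPM over 8 genes. Markers of sensory ganglion neurons summed to 408.5 CPM in F1/proestrus 5 and to no more than 1.38 CPM in the other 17 samples, so the differences of the 10 genes that moved most without F1/proestrus 5 are also given without it. In whole tissue, fewer cells of a type and less RNA per cell cannot be told apart.

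Per kilobase of exon, *Sgk1* was the most abundant of the 10 genes, with a median of 109 CPM per kb, followed by *Tsc22d3* at 83.3 CPM per kb. Their ranges over the 18 samples, 93.0 to 120 and 74.2 to 100.1 CPM per kb, overlapped. *Cdkn1a* followed at 23.9 CPM per kb and did not overlap with any other gene, with values from 13.5 to 33.4 CPM per kb. *Nr3c1*, *Pdk4*, *Fkbp5* and *Zbtb16* had medians of 9.32, 8.45, 7.49 and 6.57 CPM per kb, and neighbours in this order overlapped. *Angptl4*, *Nr3c2* and *Per1* were lowest, at 3.96, 3.77 and 1.98 CPM per kb. The glucocorticoid receptor transcript was thus present at a higher level per length than the mineralocorticoid receptor transcript, from 7.79 to 10.3 against 2.89 to 4.46 CPM per kb, without overlap. The *Per1* range, 1.38 to 2.64 CPM per kb, overlapped that of *Angptl4* but not that of *Nr3c2*.

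In GRCm38 coordinates, *Nr3c1* (ENSMUSG00000024431) lies on chromosome 18 from 39410545 to 39519421 on the minus strand, and *Nr3c2* (ENSMUSG00000031618) on chromosome 8 from 76899442 to 77245012 on the plus strand. *Fkbp5* (ENSMUSG00000024222), *Cdkn1a* (ENSMUSG00000023067) and *Angptl4* (ENSMUSG00000002289) lie on chromosome 17, from 28399094 to 28517527, 29090976 to 29100727 and 33773750 to 33781830. *Tsc22d3* (ENSMUSG00000031431) lies on chromosome X from 140539528 to 140600659. *Sgk1* (ENSMUSG00000019970) lies on chromosome 10 from 21882184 to 21999903 and *Zbtb16* (ENSMUSG00000066687) on chromosome 9 from 48654297 to 48836222. *Per1* (ENSMUSG00000020893) lies on chromosome 11 from 69095217 to 69109960 and *Pdk4* (ENSMUSG00000019577) on chromosome 6 from 5483351 to 5496309. All 10 genes are protein-coding, and their counts are over exons. Exons of *Nr3c2* and *Cdkn1a* share 247 and 273 bases with the genes Gm10649 and AC167363.2 on the opposite strand, 3.82% and 7.68% of their exon length. Since it is not stated whether counting used the strand, a small part of these counts could belong to the partner gene.

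*Nr3c1* was measured at 70.4, 76.2, 63.4, 67.2, 75.2 and 67.2 CPM in F1/proestrus 1 to 6. The F2/metestrus values were 74.4, 76.5, 72.8, 71.9, 71.9 and 76.5 CPM, and the male values 71.4, 61.6, 79.1, 59.9, 68.6 and 65.8 CPM. The 3 groups overlapped, the F2/metestrus values were the closest together, and the lowest and the highest value both came from males, males 4 and 3. *Nr3c2* ranged from 21.5 to 27.9 CPM in F1/proestrus (median 26.0), from 24.0 to 28.9 CPM in F2/metestrus (median 25.5) and from 18.7 to 25.6 CPM in males (median 23.0). All 6 males lay below the median of the 12 females, but the groups overlapped.

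*Fkbp5*, the feedback inhibitor of the receptor, was measured at 79.8, 78.7, 74.1, 74.9, 61.2 and 61.0 CPM in F1/proestrus 1 to 6, and at 81.2, 68.2, 68.8, 70.2, 68.1 and 55.6 CPM in F2/metestrus 1 to 6. In males 1 to 6 the values were 70.9, 100.1, 72.1, 110.4, 70.3 and 70.9 CPM. Males 2 and 4 were higher than every other sample, while the other 4 males lay between 70.3 and 72.1 CPM, inside the female range. *Nr3c1* was lowest in the same 2 males, at 61.6 and 59.9 CPM against 63.4 to 79.1 CPM in the other 16 samples. Male 2 also had the highest *Zbtb16* and *Per1* levels of all samples, at 47.0 and 14.9 CPM, and male 4 the highest *Sgk1* and *Angptl4* levels, at 590.2 and 30.9 CPM. *Tsc22d3* was not among the genes high in them, with 321.9 CPM in male 2, the lowest of all samples, and 354 CPM in male 4. Markers of mural cells summed to 155 and 176 CPM in males 2 and 4 and to 105 to 156 CPM in the others, and red blood cell markers to 174 and 371 CPM against 50.7 to 265 CPM. Endothelial markers went opposite ways in the 2 males, with 191 CPM in male 2 and 235 CPM in male 4, against 192 to 223 CPM in the others. The part of these cells in the *Fkbp5* levels was not tested.

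**Figure D1:**
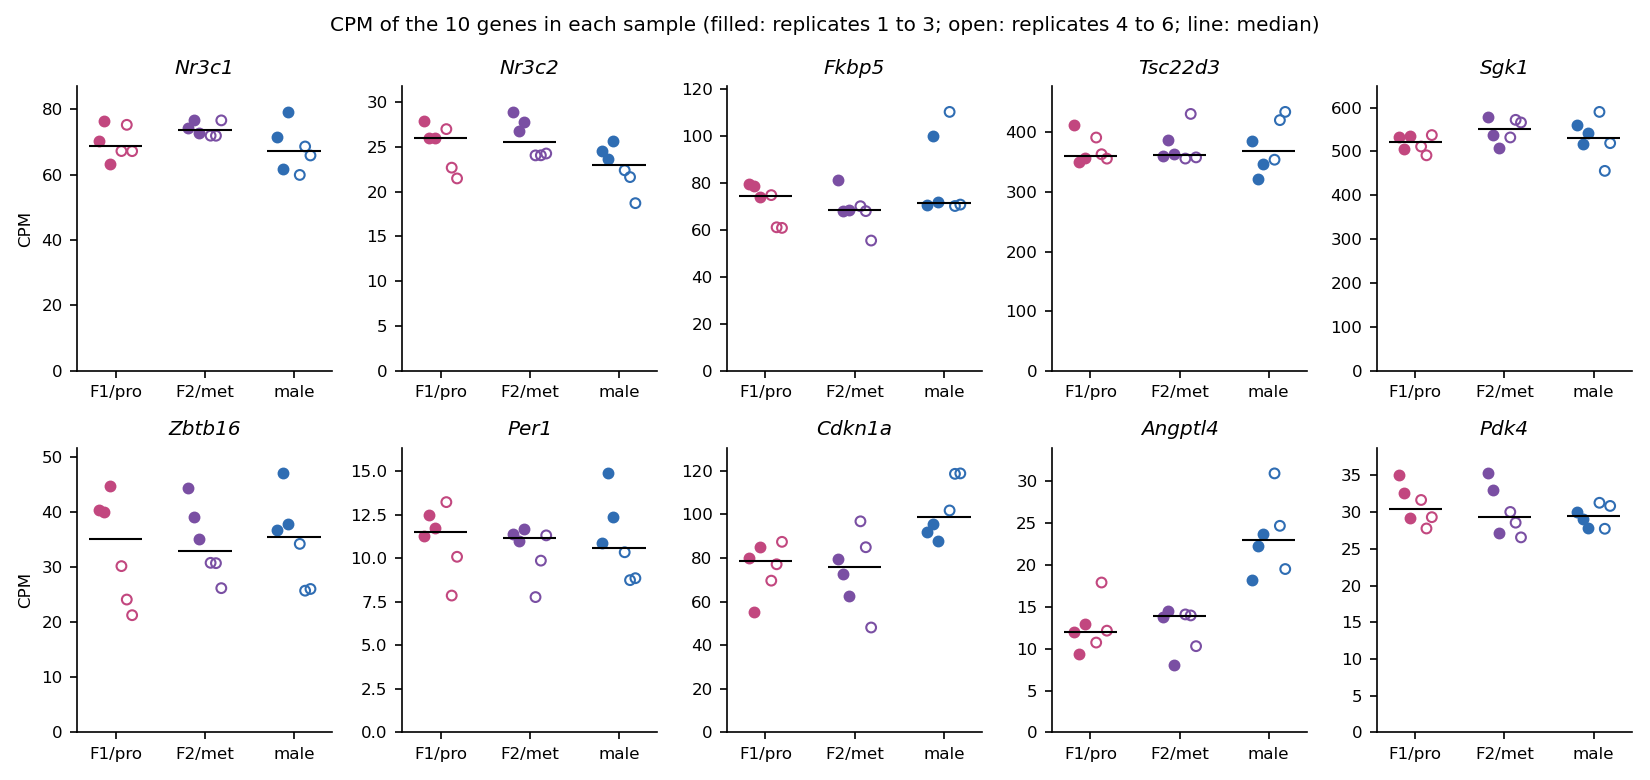
CPM of the 10 genes in each of the 18 samples by group (F1/pro, F1/proestrus; F2/met, F2/metestrus), with filled points for replicates 1 to 3, open points for replicates 4 to 6 and a line at each group's median. The male *Angptl4* points, 18.2 to 30.9 CPM, lie above all female points, and the open *Zbtb16* points lie below the filled ones.

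Of the other targets, *Tsc22d3* ranged from 321.9 to 434.5 CPM and *Sgk1* from 455.8 to 590.2 CPM over all samples, with medians in F1/proestrus, F2/metestrus and males of 360.1, 362 and 370 CPM for *Tsc22d3* and of 523, 552 and 530.4 CPM for *Sgk1*. *Pdk4* ranged from 26.6 to 35.3 CPM. These 3 genes and the receptors varied little between animals. The SD of log2 CPM over the 18 samples was 0.09 for *Sgk1*, 0.12 each for *Tsc22d3*, *Pdk4* and *Nr3c1* and 0.16 for *Nr3c2*, against a median of 0.21 over 24862 genes. The more variable genes were *Angptl4* (SD 0.53, the 84.5th percentile of all genes), *Cdkn1a* (0.34), *Zbtb16* (0.34), *Per1* (0.25) and *Fkbp5* (0.24).

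The first comparison asked whether the DHSC differed between females of the 2 behavior types and cycle stages. None of the 10 genes passed an FDR of 5% in the edgeR test, where 0.0% of all 24042 genes tested passed it. At an unadjusted p under 0.05 edgeR counted 596 genes, and DESeq2 called 2 genes at an FDR of 5%, neither of them among the 10. The fitted log2 differences of the 10 genes, F2/metestrus minus F1/proestrus, lay between -0.08 for *Per1* and 0.08 for *Nr3c1*. For *Nr3c1* the 95% interval ran from -0.04 to 0.19, for *Fkbp5* from -0.25 to 0.13, and for *Sgk1* from -0.02 to 0.17. The intervals were wider for *Zbtb16*, from -0.34 to 0.41, and for *Angptl4*, from -0.35 to 0.33. The *Angptl4* values of the female groups were 12.5 ± 2.92 (SD, n = 6) and 12.4 ± 2.65 CPM (SD, n = 6). Without F1/proestrus 5 the *Angptl4* difference was 0.12 and that of *Zbtb16* was -0.04, with the sign turned in both. *Per1* then went to -0.16, *Fkbp5* to -0.10, *Pdk4* to -0.07 and *Nr3c2* to 0.02, and none of the 10 genes passed the edgeR threshold.

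The second comparison set the 6 males against the 12 females. In this contrast the edgeR test called 0.197% of 24862 genes, and 0.149% as higher in males. Of the 10 genes 1 was called, *Angptl4*, and since the genes were chosen with this contrast known, the count is a description. *Angptl4* was measured at 11.9, 9.39, 13.0, 10.7, 17.9 and 12.2 CPM in F1/proestrus 1 to 6, at 13.8, 14.5, 8.04, 14.1, 14.0 and 10.3 CPM in F2/metestrus 1 to 6, and at 18.2, 22.3, 23.7, 30.9, 24.7 and 19.5 CPM in males 1 to 6. All 6 males lay above all 12 females, by a narrow margin between F1/proestrus 5 and male 1. The means were 23.2 ± 4.51 (SD, n = 6) and 12.5 ± 2.66 CPM (SD, n = 12), a 1.86-fold difference with a 95% interval of 1.54 to 2.25 (log2 difference 0.89, SE 0.13, adjusted p = 0.00159, edgeR). Over all genes tested, 0.0724% had all males above all females.

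The *Angptl4* difference had the same direction in both library series, with log2 differences of 0.85 in replicates 1 to 3 (adjusted p = 0.177, edgeR) and 0.93 in replicates 4 to 6 (adjusted p = 0.111), although it did not pass the threshold in either series alone, each with 3 males and 6 females. It was 0.89 against F1/proestrus alone and 0.90 against F2/metestrus alone, with adjusted p of 0.0287 and 0.0213 in edgeR. Marker lists of other cells also reached higher sums in males. Microglia markers summed to 354 to 398 CPM in males and 312 to 371 CPM in females, Schwann cell markers to 1860 to 4550 against 1250 to 2620 CPM, and neutrophil markers to 4.59 to 24.1 against 1.66 to 8.30 CPM. All 6 genes of each list were detected, and adipocyte markers summed to no more than 5.89 CPM in any sample. The part of these cells in the *Angptl4* difference was not tested.

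*Cdkn1a* was measured at 92.0, 95.7, 87.6, 101.8, 118.6 and 118.8 CPM in males 1 to 6, at 55.4 to 87.4 CPM in F1/proestrus (median 78.6) and at 48.1 to 96.8 CPM in F2/metestrus (median 76.0). All males lay above the female median and 3 above every female, so the groups overlapped. The log2 difference was 0.45 (95% interval 0.21 to 0.69), which did not pass the threshold in edgeR (adjusted p = 0.147), whereas DESeq2 gave an adjusted p of 0.0371. With the library series in the model, the edgeR adjusted p was 0.0605.

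*Fkbp5* averaged 82.5 ± 17.97 CPM in males (SD, n = 6) and 70.1 ± 8.06 CPM in females (SD, n = 12), a log2 difference of 0.23 with an edgeR adjusted p of 0.449. All 6 males lay above the female median of 69.5 CPM. Without males 2 and 4, a choice made after their values were seen, the difference was 0.01 (edgeR adjusted p = 0.968), while that of *Angptl4* was 0.78 (adjusted p = 0.0300). The receptors had log2 differences of -0.09 (*Nr3c1*, adjusted p = 0.607, edgeR) and -0.17 (*Nr3c2*, adjusted p = 0.432). With the library series in the model, the *Nr3c2* difference was again -0.17, at an edgeR adjusted p of 0.0987, and it was not called. The remaining targets, *Tsc22d3*, *Sgk1*, *Zbtb16*, *Per1* and *Pdk4*, had log2 differences between -0.05 and 0.03. Without F1/proestrus 5 the differences of *Zbtb16* and *Per1* turned from 0.03 to -0.01 each, and that of *Angptl4* was 0.95. For *Sgk1* the 95% interval ran from -0.11 to 0.09 and for *Tsc22d3* from -0.11 to 0.14, so that a sex difference of the size fitted for *Angptl4* lay outside both.

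**Figure D2:**
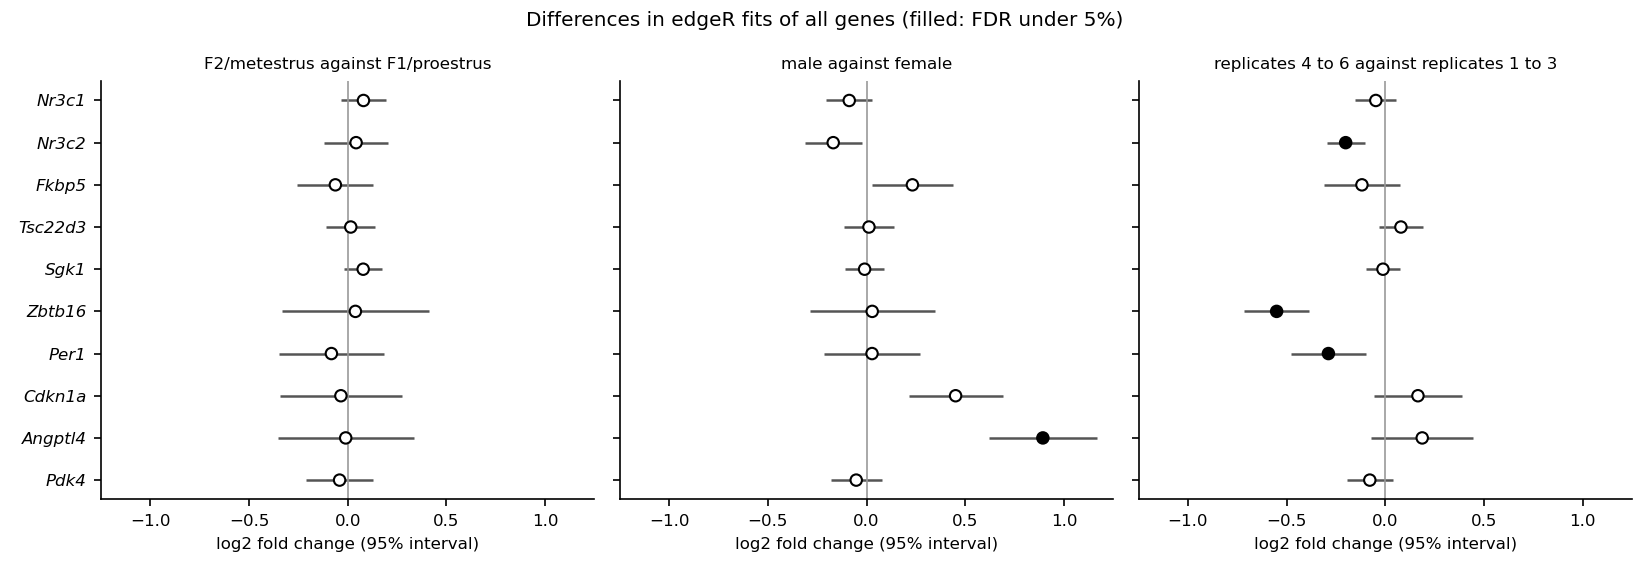
Log2 fold change of each of the 10 genes with its 95% interval in the fits of F2/metestrus against F1/proestrus, males against females, and replicates 4 to 6 against replicates 1 to 3. Filled points passed an FDR of 5%, which in the comparison of the sexes is *Angptl4* at 0.89 and in that of the library series are *Nr3c2* (-0.20), *Zbtb16* (-0.55) and *Per1* (-0.29).

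The 2 library series, known only by their numbers, differed more widely than the groups. With group in the model, 26.9% of 25180 genes were called in edgeR, and 12.7% as higher in replicates 1 to 3. Of the 10 genes 3 were called, all higher in replicates 1 to 3, a share near the background for calls in either direction. *Zbtb16* was measured at 40.4, 39.9 and 44.7 CPM in F1/proestrus 1 to 3 and at 30.2, 24.1 and 21.3 CPM in replicates 4 to 6. The F2/metestrus values were 44.3, 39.0 and 35.1 followed by 30.8, 30.7 and 26.2 CPM, and the male values were 36.7, 47.0 and 37.8 followed by 34.2, 25.7 and 26.1 CPM. All 9 samples of the first series lay above all 9 of the second, as they did for 2.59% of all genes tested. The fold difference was 1.46 (log2 difference, second minus first, -0.55, SE 0.08, adjusted p = 4.24e-05, edgeR).

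*Nr3c2* averaged 26.3 ± 1.68 CPM in the first series and 22.9 ± 2.31 CPM in the second (SD, n = 9 each), with a log2 difference of -0.20 (adjusted p = 0.00284, edgeR). *Per1* averaged 12.0 ± 1.23 and 9.79 ± 1.74 CPM, with a log2 difference of -0.29 (adjusted p = 0.0246), and without male 6 its adjusted p was 0.0532. *Fkbp5* and *Cdkn1a* had log2 differences of -0.12 and 0.17 and were not called, but without male 4 *Fkbp5* reached -0.20 (edgeR adjusted p = 0.0412) and without F2/metestrus 6 *Cdkn1a* reached 0.24 (adjusted p = 0.0315). In an edgeR interaction test of the series with sex or with the female groups, none of the 10 genes passed the threshold, and the lowest adjusted p was 0.970. The fitted sex differences nonetheless varied between the series, from -0.16 in replicates 1 to 3 to 0.05 in replicates 4 to 6 for *Pdk4*, from -0.10 to 0.11 for *Tsc22d3*, from 0.12 to -0.10 for *Per1* and from 0.09 to 0.37 for *Fkbp5*.

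To ask whether the genes varied together over animals, log2 CPM of the 45 pairs were correlated over the 18 samples with permutation tests and adjustment over the 45 pairs. *Cdkn1a* and *Angptl4* formed the 1 pair past 5% by Pearson correlation. By Spearman correlation 4 pairs passed, this one and *Nr3c2* with *Cdkn1a*, *Fkbp5* with *Zbtb16* and *Zbtb16* with *Per1*, the latter 3 at a permutation adjusted p of 0.0465. For the first pair the sexes formed separate clusters in *Angptl4*, and it was examined within each sex. Within the 12 females r was 0.642 (permutation p = 0.0246, adjusted p = 0.164) and within the 6 males 0.0523 (exact permutation p = 0.918, adjusted p = 0.997).

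*Fkbp5* and *Zbtb16* had positive correlations within each library series, examined separately because the series did not overlap in *Zbtb16*. In replicates 1 to 3 r was 0.783 (exact permutation p = 0.00712, adjusted p = 0.107) and in replicates 4 to 6 it was 0.725 (exact permutation p = 0.023, adjusted p = 0.209), with 9 samples each, so neither passed after adjustment over 45 pairs. On residuals after group and series, r over the 18 samples was 0.831, given as a description. Within the 12 females, which mix both series, r was 0.813 (permutation p = 0.00149, adjusted p = 0.0309). F1/proestrus 5, F1/proestrus 6 and F2/metestrus 6 were low in both genes, and male 2 was high in both. F1/proestrus 5 is the sample with high levels of sensory ganglion neuron markers. The other pairs past 5% within females were *Nr3c2* with *Zbtb16* (r = 0.850, permutation adjusted p = 0.0270) and *Fkbp5* with *Pdk4* (r = 0.799, permutation adjusted p = 0.0309). Within the 6 males they were *Zbtb16* with *Per1* (r = 0.973) and *Nr3c2* with *Cdkn1a* (r = -0.911), each at the smallest exact permutation p that 6 samples allow, 0.00139 (adjusted p = 0.0312). The males also mix both series, in which *Zbtb16*, *Per1* and *Nr3c2* differed. Within the 12 females, r was 0.484 for *Zbtb16* with *Per1* (permutation p = 0.112, adjusted p = 0.421). For *Nr3c2* with *Cdkn1a* it was -0.207 in the females (permutation p = 0.521, adjusted p = 0.96). On residuals after group and series, r over the 18 samples was 0.323 and -0.224 for these 2 pairs. Within replicates 1 to 3 and 4 to 6 of all groups, r was 0.521 and 0.205 for *Zbtb16* with *Per1* (exact permutation p = 0.148 and 0.597) and -0.471 and -0.647 for *Nr3c2* with *Cdkn1a* (exact permutation p = 0.201 and 0.0647). For *Fkbp5* with *Pdk4* it was 0.152 and 0.696 (exact permutation p = 0.736 and 0.0212, adjusted p = 0.765 and 0.209). For *Nr3c2* with *Zbtb16*, both lower in the second series, r was -0.162 within replicates 1 to 3 and 0.423 within replicates 4 to 6 (exact permutation p = 0.672 and 0.253).

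*Nr3c1* and *Fkbp5* ran in opposite directions over the 18 samples, with r = -0.609 (permutation p = 0.00677, adjusted p = 0.0609) and rho = -0.428 (permutation p = 0.0781, adjusted p = 0.279). Without males 2 and 4, the 2 samples farthest from the median of *Nr3c1*, r was -0.147, so the relation rests on these 2 animals. Within the series r was -0.596 (exact permutation p = 0.0935) and -0.851 (exact permutation p = 0.00493), each series holding 1 of the 2 males. The target genes did not move as 1 block: r was above 0 in 18 of the 28 pairs among the 8 targets. Between *Fkbp5* and *Tsc22d3*, for example, r was -0.268 and rho -0.271 (permutation p = 0.284 and 0.276).

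**Figure D3:**
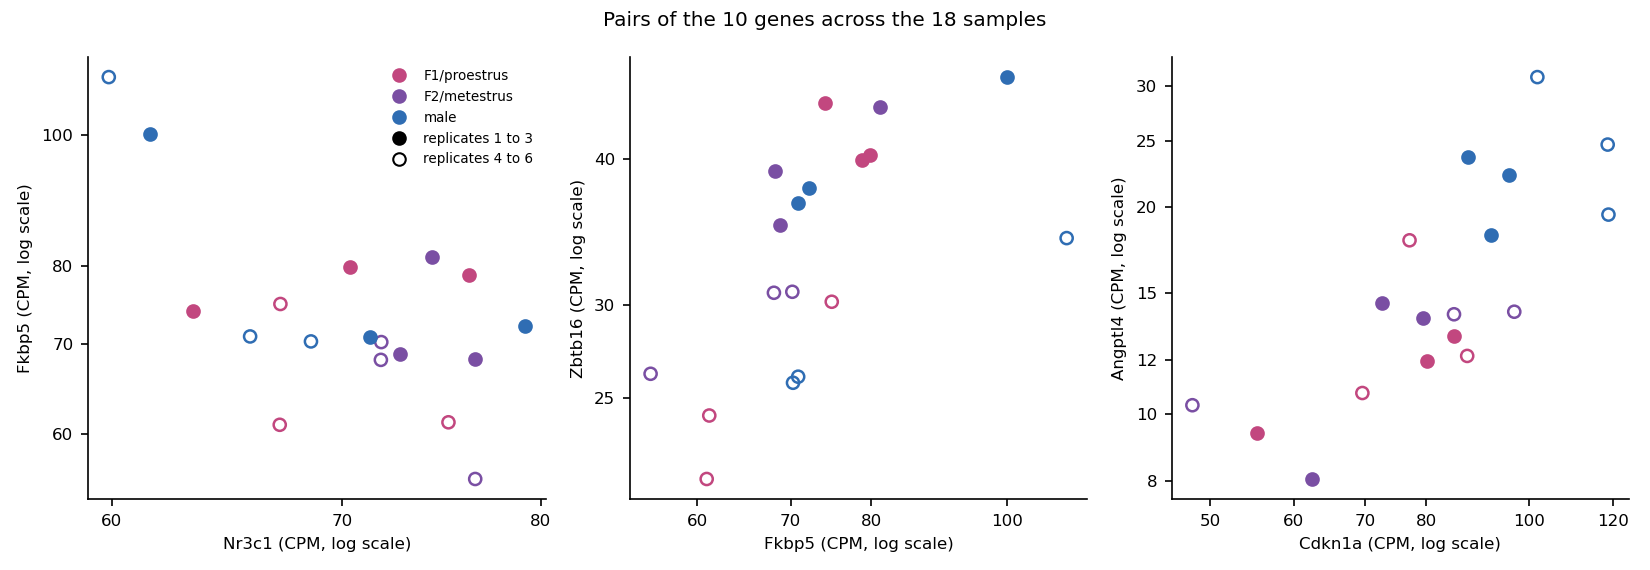
CPM of *Nr3c1* and *Fkbp5*, *Fkbp5* and *Zbtb16*, and *Cdkn1a* and *Angptl4* in the 18 samples, both axes on a log scale, colored by group and filled for replicates 1 to 3. Males 2 and 4 are the 2 points at 100.1 and 110.4 CPM of *Fkbp5*, with the lowest *Nr3c1*, and the male points lie above all others on the *Angptl4* axis.

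The genes whose residuals after group and series ran closest to the mean of the 8 targets, among 17753 genes with a mean of at least 1 CPM, were *Hif3a* (r = 0.822 over 18 samples), Gm16380 (0.812), *Sgk3* (0.804), Gm28035 (0.785) and *Kcnk1* (0.784). Closest to *Fkbp5* alone were *Slc2a1* (r = 0.868), which encodes the glucose transporter GLUT1, *Mylk* (0.828), the myosin light chain kinase, *Gimap1* (0.827), Gm15587 (0.819) and Gm7664 (0.818). Closest to *Angptl4* were *Eif2s3x* (0.837), *Tor4a* (0.825), *Ndst4* (0.796), *Lrp8* (0.792) and *Atp8b3* (0.769). On log2 CPM, with the differences between groups and series left in, r with *Angptl4* was -0.574 for *Eif2s3x*, 0.672 for *Tor4a*, 0.0179 for *Ndst4*, -0.0286 for *Lrp8* and 0.596 for *Atp8b3*. These are the highest of many values computed on shared libraries and are given with no test.

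Other genes of the pathway were read from lists written with earlier results of these data known. Of 24 other glucocorticoid-induced genes, none was called between the female groups and 1 between the sexes, *Sult1a1*, a sulfotransferase, at 25.1 ± 5.87 CPM in males (SD, n = 6) and 17.04 ± 1.88 CPM in females (SD, n = 12), with a log2 difference of 0.56 (adjusted p = 0.0238, edgeR). Of all genes tested, 0.0% were called between the female groups and 0.197% between the sexes. The median log2 difference of the 24 between the sexes was 0.08, against -0.001 over all genes, and 17 lay above 0. The metallothioneins *Mt1* and *Mt2* had log2 differences of 0.32 and 0.39 and were not called (edgeR adjusted p = 0.244 and 0.297). Between the library series 13 of the 24 were called, 6 higher in replicates 4 to 6 and 7 higher in replicates 1 to 3, against 26.9% of all genes called, 14.2% and 12.7% in the respective directions. *Ddit4*, an inhibitor of mTOR signaling, averaged 8.98 ± 3.77 CPM in replicates 4 to 6 and 25.2 ± 6.41 CPM in replicates 1 to 3 (log2 difference -1.49). *Plin4* (-0.92), *Hif3a* (-0.51) and *Fam107a* (-0.41) were lower in replicates 4 to 6, and *Mt2* (0.41), *Cdkn1c* (0.30) and *Klf9* (0.21) were higher.

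None of the 7 receptor chaperones, 9 coregulators or 6 tested genes of corticosteroid metabolism and transport was called in either comparison of groups in edgeR. The shares called over all genes were 0.197% between the sexes and 0.0% between the female groups, so these counts are near the background. Among the chaperones *Hsp90aa1*, *Hsp90ab1* and *Fkbp4* had log2 differences between the sexes of 0.07, 0.03 and 0.05. *Srd5a2*, a steroid 5-alpha-reductase, averaged 1.93 ± 0.71 CPM in males (SD, n = 6) and 0.986 ± 0.287 CPM in females (SD, n = 12), a log2 difference of 0.96 that was not called (edgeR adjusted p = 0.145). *Hsd11b1*, which regenerates active glucocorticoid from its inert form, had a log2 difference of -0.18 (adjusted p = 0.441). Between the library series 7 of the 9 coregulators were called, all lower in replicates 4 to 6, where 12.7% of all genes were called in that direction, with the acetyltransferase *Ep300* at -0.53 and the coactivator *Ncoa2* at -0.31. Of the 7 chaperones 3 were called, *Hsp90aa1*, *Fkbp4* and *Stip1*, all higher in replicates 4 to 6, at 0.22, 0.17 and 0.11. Of the 6 tested genes of corticosteroid metabolism and transport 1 was called, *Hsd11b1*, also higher in replicates 4 to 6, at 0.15. In that direction 14.2% of all genes were called, so the count of 1 in 6 is near the background.

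Several of the 8 targets answer to other regulators, and lists for these were read in the same way. No gene of 15 clock genes, 14 p53 targets, 15 PPAR targets or 10 immediate early genes was called between the sexes or between the female groups in edgeR. Over all genes tested, 0.197% and 0.0% were called in these comparisons, so counts of 0 are near the background. Between the sexes, the median log2 differences of these lists were -0.06, 0.01, 0.01 and 0.10. *Ucp2*, a PPAR target like *Angptl4*, had a difference of 0.27 (edgeR adjusted p = 0.323), and *Sesn1*, a p53 target like *Cdkn1a*, 0.17 (adjusted p = 0.151). *Egr2*, an immediate early gene, had a difference of 0.40 (edgeR adjusted p = 0.323). It is also in the list of Schwann cell markers, which reached higher sums in males, and the part of these cells in its difference was not tested. The clock genes *Bhlhe41*, *Nr1d2* and *Npas2* had differences of -0.12, -0.14 and 0.17. Between the female groups 1 of the 10 immediate early genes lay above 0. Their median was -0.19, F2/metestrus minus F1/proestrus, against -0.0004 over all genes tested. Between the sexes 9 of the 10 lay above 0, males minus females, where the median over all genes was -0.001. Between the library series 2 of the 15 clock genes were called, *Clock* (-0.42) and *Per3* (-0.36), both lower in replicates 4 to 6, against 26.9% of all genes called in either direction. The 15 genes had a median of -0.01, and 7 lay above 0.

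**Figure D4:**
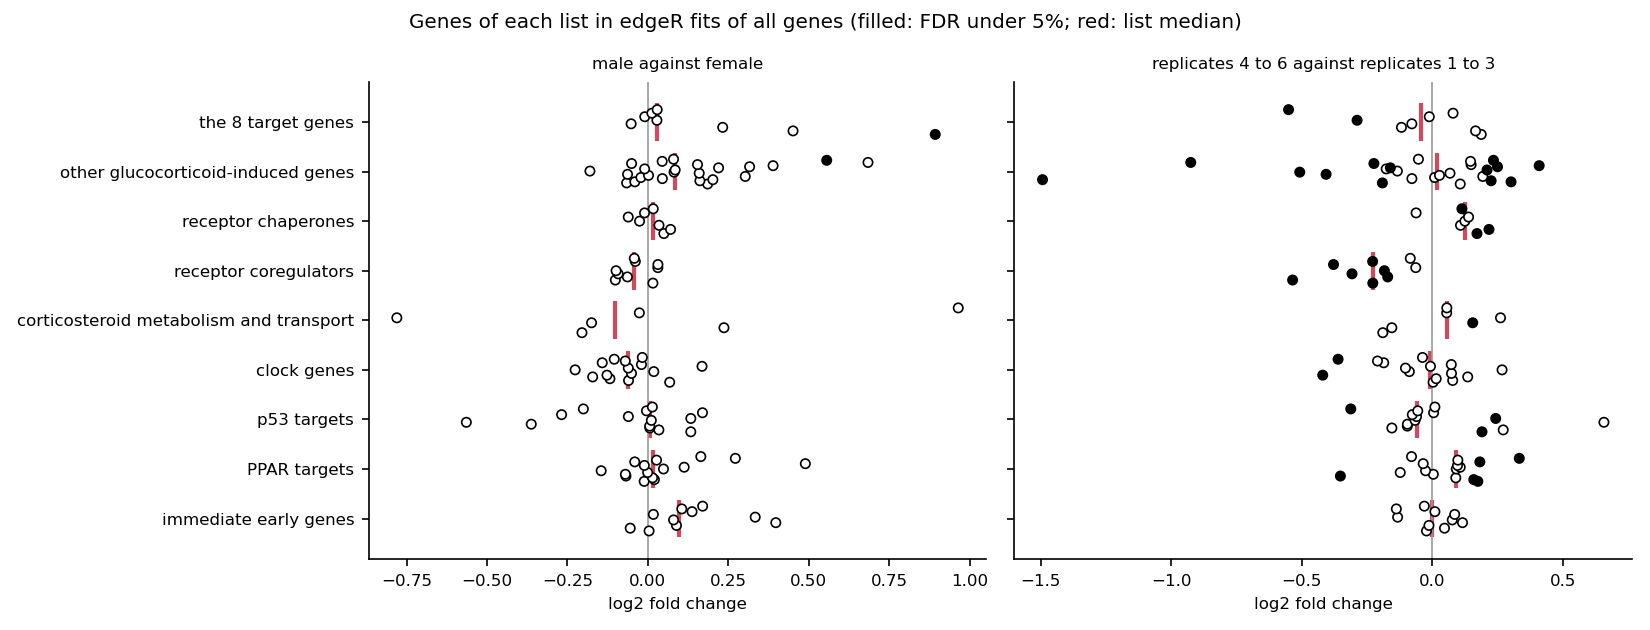
Log2 fold change of the genes of each list between males and females and between replicates 4 to 6 and replicates 1 to 3, with filled points for an FDR under 5% and a red line at each list's median. In the comparison of the sexes the filled points are *Angptl4* at 0.89 and *Sult1a1* at 0.56, and between the series the coregulators lie below 0.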

How the data were processed

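The authors deposited raw counts of reads on exons for 18 DHSC samples. Per the labels, reads were demultiplexed with bcl2fastq 2.20.0.422, and reads mapped uniquely to mm10 were counted with Subread 2.0.3 (featureCounts). The strand setting is not given in the sources used here. For library preparation the methods name TruSeq, and the labels SMART-Seq v4 and Nextera XT, which amplifies by PCR. The authors also deposited a DESeq2 table of 1 comparison, from which only gene symbols were used. Its log2 fold changes, mean signal, scores and p-values, computed by the authors, were not used.

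Low counts were removed by filterByExpr at minima of 10 counts and of 15 in total, libraries were scaled by TMM, and all remaining genes were tested with the quasi-likelihood test of edgeR 4.0.16 (R 4.3.3). Genes past a Benjamini-Hochberg FDR of 5% were called. The 12 females were used for the female groups and all 18 samples for the sexes. The study used DESeq2, run here as an alternative (version 1.42.0). The edgeR fit was run on simulated data with known changes, and the outcome is not reported here. For the comparisons of groups, the simulated library series did not differ, unlike in these data. Log2 CPM used a prior count of 2. Permutation tests were two-sided, with 100000 resamples, or exact within a series or within males. Total counts of 73590509 to 125724156 left at least 707 counts on each of the 10 genes in each sample. Intervals are those of the fit. The p-values of edgeR and DESeq2 set a difference against the spread between these samples. The permutation p-values set a correlation against shuffled pairings of the same samples. No pair of samples of the same group agreed within sampling noise. Promoter windows are from RefSeq, and gene positions from GENCODE vM21, which held 55394 of the 55573 gene IDs.

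The genes and lists were chosen with earlier results of these data known. The genes named were all 10 genes, of each list those past the FDR or the 3 with the smallest p between the sexes, and the 5 most similar genes to the target mean, *Fkbp5* and *Angptl4*. The text gives a selection of these for the library series. Some genes that the rule names are not reported here. Alternatives were DESeq2, limma voom (3.58.1), other size factors, other filters, the library series as a covariate or alone, each female group alone, the replicate number as a block and leaving out each sample. Leaving out males 2 and 4 together and the correlations within each sex were chosen after seeing the data.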

Additional observations from a re-analysis of the deposited data

Results flagged for a closer look

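Among 71 named genes, 213 groups of 6 samples were searched for a sample far from the others of its group, and 6 such values were found. The groups come from the same 18 libraries and are not independent, so the number is a description. None of the 6 values was in the 10 receptor and target genes. F2/metestrus 4 stood apart from its group in *Fkbp4* (339 CPM, others 264 to 287 CPM), *Hsp90ab1* (1680 CPM, others 1390 to 1490 CPM), *Nr1d2* (116 CPM, others 140 to 151 CPM) and *Gimap1* (4.01 CPM, others 3.10 to 3.33 CPM). F1/proestrus 4 had 0.264 CPM of *Srd5a2*, with the others at 0.818 to 1.09 CPM, and F1/proestrus 2 had 31.2 CPM of *Hsd11b1*, with the others at 36.8 to 38.4 CPM.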

How the results depend on the processing

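*Angptl4* was called between the sexes without each of the 18 samples in turn, with log2 differences of 0.79 to 0.95, and by all alternatives except each library series alone. Genes called of all genes numbered 49 and became 31 with at least 10 counts in every sample, 166 with DESeq2, 133 with the series as a covariate, 23 and 32 against F1/proestrus or F2/metestrus alone, 16 and 13 in replicates 1 to 3 or 4 to 6 alone, and 25 to 77 without 1 sample, the highest without F1/proestrus 5 and the lowest without male 5 (30 without male 4). Of the 10 genes, DESeq2 called 2 between the sexes, *Angptl4* and *Cdkn1a*, and each series alone called 0. Between the female groups DESeq2 called 2 genes of all, and edgeR 0. The same replicate number did not pair the samples, since correlations of deviations between same-numbered samples ran from -0.105 to 0.228. With the replicate block 112 genes were called between the sexes, among them 1 of the 10 genes, and 0 between the female groups.

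Differences near 0 turned sign without passing the threshold. Between the female groups these were *Tsc22d3* (-0.00030 with voom, -0.015 in replicates 1 to 3), *Zbtb16* (-0.081 in replicates 1 to 3) and *Angptl4* (0.081 in replicates 1 to 3). Without 1 sample they ran from -0.024 to 0.048 for *Tsc22d3*, from -0.061 to 0.14 for *Zbtb16*, from -0.13 to 0.065 for *Cdkn1a* and from -0.080 to 0.12 for *Angptl4*. Between the sexes they were *Tsc22d3* (-0.012 with voom, -0.0020 with the replicate block, -0.095 in replicates 1 to 3), *Sgk1* (0.031 against F1/proestrus, 0.0036 in replicates 1 to 3), *Zbtb16* (-0.018 in replicates 1 to 3, -0.11 without males 2 and 4), *Per1* (-0.012 against F1/proestrus, -0.10 in replicates 4 to 6, -0.087 without males 2 and 4) and *Pdk4* (0.053 in replicates 4 to 6). Without 1 sample the ranges were -0.041 to 0.048 for *Tsc22d3*, -0.049 to 0.020 for *Sgk1*, -0.087 to 0.090 for *Zbtb16* and -0.085 to 0.076 for *Per1*. The cause was not tested.

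Of the 45 correlations, 1 passed 5% over all samples by Pearson and 4 by Spearman correlation, and by Pearson 0 in each library series alone, 3 in females, 2 in males, 5 without males 2 and 4, and 1 to 4 without 1 sample. The correlation of *Nr3c2* and *Zbtb16* was -0.162 in replicates 1 to 3 and 0.664 over all samples.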
